A study of Mus musculus with 6 samples.

Results

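The Rab GTPases were examined in mouse immature dendritic cells (imDCs) with and without fluid shear stress (FSS). A gene was taken as a Rab gene when its symbol was Rab followed by a number, with or without a further letter and digit, so that effectors such as Rab11fip5 stay outside. The rule found 59 of the 22899 genes in the table, and 58 of them had values; Rab9b was blank in all libraries. Of the 58, 41 reached 1 FPKM in at least 3 libraries and were tested, among 10899 genes in all. FPKM counts the fragments of a gene relative to transcript length and to the fragments of its library, so levels can be compared between genes. The deposited table names no unit, and FPKM was inferred from its values. The values of a gene in a library are given below in the order of replicate numbers 1 to 3.

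The FSS group held 3 libraries of imDCs loaded with 10 dyn/cm2 for 3 h in a cone-plate device, in which a turning cone drags the medium over cells in a dish, and the static group held 3 libraries of imDCs cultured without flow. All cells came from the marrow of male C57BL/6 mice aged 7 weeks, with a culture of 7 days in which GM-CSF stood at 20 ng/ml while IL-4 stood at 10 ng/ml, and were then selected by CD11c. The comparison asks which messenger RNAs differ in loaded cells. Nothing in the labels ties a replicate to its own culture or mouse, and p-values here rest on a spread between libraries that may be no more than technical. Replicate numbers 1 to 3 occur in both groups, and libraries of one number deviated from their group means together, so each test is given without the number and with it as a block. In brackets, "blocked" is the adjusted p with this block, and "blocked and scaled" is the one with libraries also scaled by their median ratio.

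Rab proteins are small GTPases that sit on the surface of membranes and name them. Loaded with GTP by exchange factors (GEFs), a Rab recruits effectors that bud, move, tether or fuse vesicles. GTPase-activating proteins (GAPs) then end the signal, and GDI proteins return the lipid-modified Rab to the cytosol. Dendritic cells depend on this traffic to take up antigen, to ripen phagosomes, to load peptide onto MHC molecules and to deliver receptors and cytokines to the surface.

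The label was checked against marker genes. Of 12 dendritic cell markers, 10 were tested, with Itgax (CD11c) at 448 ± 52.6 FPKM in FSS cells and 537 ± 54.3 FPKM in static cells and H2-Ab1 at 1096 ± 129 FPKM in FSS cells and 1035 ± 75.6 FPKM in static cells (SD, n = 3 each). Flt3 and Cd209a stayed low, at means of 0.413 and 0.293 FPKM in FSS cells and 0.513 and 0.197 FPKM in static cells. Macrophage and monocyte markers were present, 7 of 8 being tested, and their summed level ran from 693 to 818 FPKM in FSS libraries and from 671 to 775 FPKM in static libraries. The 9 neutrophil markers summed to 259 to 439.7 FPKM in FSS libraries and 295 to 531 FPKM in static libraries, ranges that overlap. Within each pair the summed dendritic and neutrophil markers were lower under FSS and the summed macrophage markers higher. T and NK cell markers summed to at most 1.18 FPKM in FSS libraries and 1.68 FPKM in static libraries. B and plasma cell markers reached 4.86 and 5.97 FPKM, erythroid and platelet markers 20.7 and 17.2 FPKM, mast cell, basophil and eosinophil markers 26.2 and 27.5 FPKM (Mcpt4 at 0 throughout), and markers of stroma and endothelium 13.5 and 18.1 FPKM, as the highest sums in FSS and static libraries. With the block 5 dendritic, 2 neutrophil and 2 macrophage markers and Pecam1 of endothelium fell, and 2 macrophage markers, Prss34 of basophils and Kdr of endothelium rose (25.1% and 7.73% of all genes). With the block and scaling 4 dendritic, 2 macrophage and 1 neutrophil markers and Pecam1 fell (16.8% of all genes). In that fit 4 macrophage and 2 neutrophil markers, Prss34, Mcpt8, Pf4 of platelets and Kdr rose (19.2% of all genes). Irf4, a transcription factor of dendritic cells, also fell without the block (limma adjusted p = 0.0133). It had 88.3, 123 and 107 FPKM in the FSS libraries, against 431, 326 and 407 FPKM in the static ones. Of the 8 tested neutrophil markers 4 were lower, with a list median of 0.033 log2. Of these S100a8 had 98.9, 156 and 146 FPKM in the FSS libraries, against 154, 243 and 239.8 FPKM in the static ones (limma adjusted p = 0.228, blocked 0.00148, blocked and scaled 0.00351), while Ngp and Ltf rose with the block and scaling (limma adjusted p = 0.0274 and 0.0362). The part of other cells in the Rab differences was not tested, and fewer cells of a type and less RNA per cell cannot be told apart in bulk RNA.

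Rab20 and Rab9 were the Rab genes that rose with the block, and Rab33b and Rab1b, both of the Golgi route, were among those that fell. Their promoters are shown because these 4 genes stand near both ends of the range of differences. Each runs from 250 bases before to 50 bases after the gene's start (RefSeq, GRCm38.p6). Capitals mark the letters of the motifs searched on both strands. The E-box was searched as CACGTG, the CCAAT box by its name, and the GC box as GGGCGG. The heat shock element was searched as GAANNTTC, and the cyclic AMP response element as TGACGTCA.
Rab20 (chr8:11478591-11478890, minus strand): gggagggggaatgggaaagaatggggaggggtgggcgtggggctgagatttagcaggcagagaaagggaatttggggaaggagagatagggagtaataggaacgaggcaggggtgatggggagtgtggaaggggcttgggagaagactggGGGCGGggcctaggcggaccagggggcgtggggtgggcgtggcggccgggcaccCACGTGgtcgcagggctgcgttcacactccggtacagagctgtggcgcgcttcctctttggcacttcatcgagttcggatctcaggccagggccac
Rab9 (chrX:166479818-166480117, minus strand): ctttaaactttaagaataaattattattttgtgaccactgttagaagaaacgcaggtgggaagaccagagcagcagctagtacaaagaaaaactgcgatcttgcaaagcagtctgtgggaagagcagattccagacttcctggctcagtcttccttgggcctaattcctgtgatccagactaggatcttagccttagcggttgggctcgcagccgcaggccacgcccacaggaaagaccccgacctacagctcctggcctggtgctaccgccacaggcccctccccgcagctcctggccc
Rab33b (chr3:51483716-51484015, plus strand): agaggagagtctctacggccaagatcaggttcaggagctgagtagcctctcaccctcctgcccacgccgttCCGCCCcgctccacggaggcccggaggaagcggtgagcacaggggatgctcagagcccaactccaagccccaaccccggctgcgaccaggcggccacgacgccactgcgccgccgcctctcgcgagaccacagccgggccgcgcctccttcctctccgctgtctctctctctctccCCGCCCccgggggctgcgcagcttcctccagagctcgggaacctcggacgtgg
Rab1b (chr19:5106947-5107246, minus strand): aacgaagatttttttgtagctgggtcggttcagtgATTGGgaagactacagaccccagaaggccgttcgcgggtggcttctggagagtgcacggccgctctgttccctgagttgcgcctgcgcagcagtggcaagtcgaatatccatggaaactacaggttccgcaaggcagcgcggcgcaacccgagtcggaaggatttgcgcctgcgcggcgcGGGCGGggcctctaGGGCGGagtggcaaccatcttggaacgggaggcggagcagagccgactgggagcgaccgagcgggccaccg
The Rab20 window held 1 GC box and 1 E-box, the Rab33b window 2 GC boxes, and the Rab1b window 2 GC boxes and 1 CCAAT box. None of the 5 motifs was found in the Rab9 window, which says only that these letters do not occur in it. Heat shock elements were in none of the 4 windows. Of 60 promoter entries of Rab genes, 41 (68.3%) held a GC box, against 35.7% of all 32851 entries; 6 (10.0%) held the E-box, against 7.15%. CCAAT was in 43.3% of the Rab entries and 37.4% of all, the heat shock element in 5.0% and 7.86%, and the cyclic AMP element in 3.33% and 1.79%. A match describes letters, not a bound site, and some genes have several entries. The GC box consists of G and C alone, and these shares were not adjusted for base composition. Over all entries the median share of G and C was 52.67%. The Rab20, Rab9, Rab33b and Rab1b windows had 64.3%, 53.3%, 70.0% and 63.3%. All entries include genes that were not tested here.

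The Rab genes differed widely in level. Rab8b, which serves delivery of vesicles to the plasma membrane, had 297, 264 and 124 FPKM in the FSS libraries, against 287, 274 and 166 FPKM in the static ones. Rab7, the Rab of late endosomes that drives their fusion with lysosomes, had 180.2, 203 and 211 FPKM in the FSS libraries, against 205, 229 and 231 FPKM in the static ones. The number 3 libraries were the lowest of both groups for Rab8b and the highest for Rab7, and the groups overlapped for both genes.

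**Figure D1:**
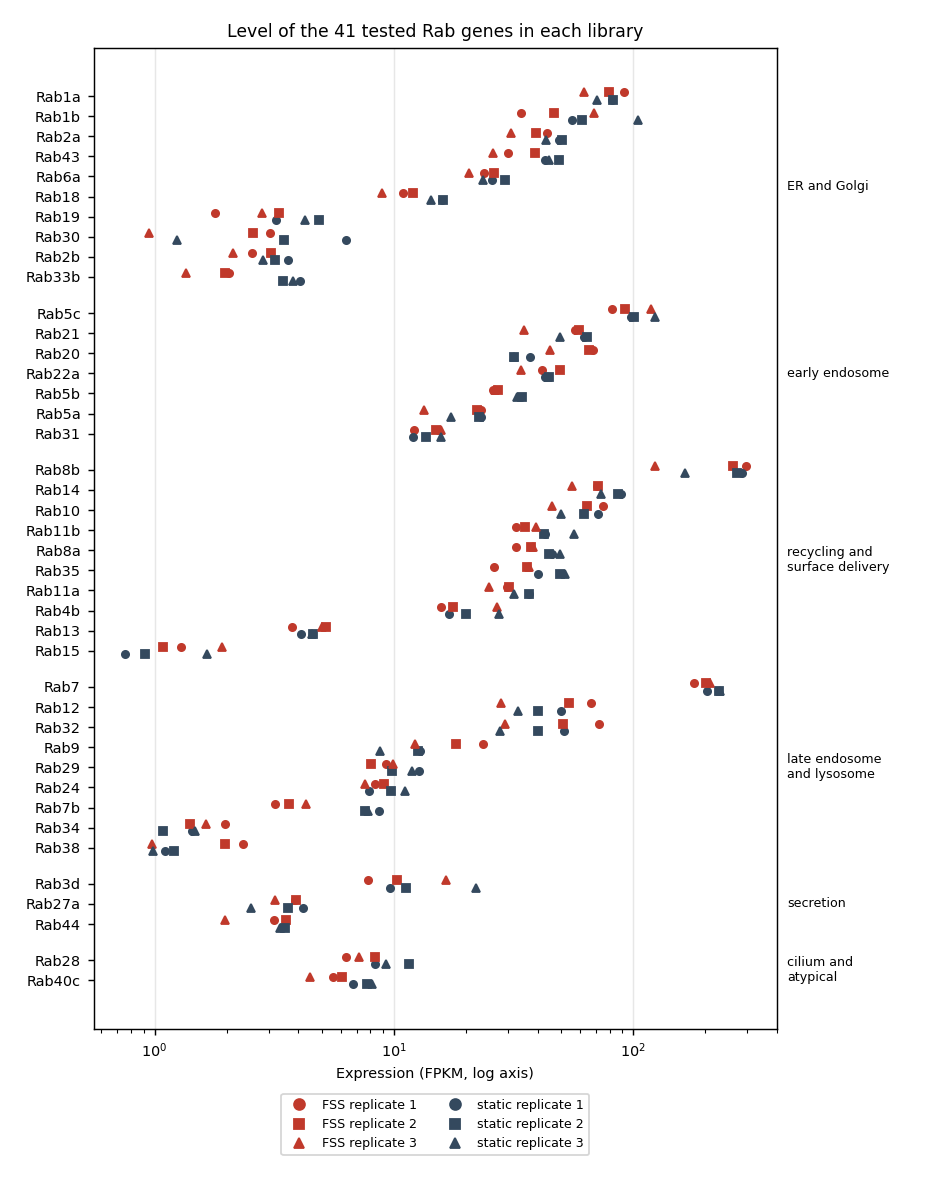
Level of each of the 41 tested Rab genes (rows, grouped by site of action) in FPKM on a log axis, with 1 point per library: FSS (red, upper) and static (dark, lower), the symbol shape giving the replicate number. Rab8b and Rab7 lie at 124 FPKM or more in all libraries, while Rab34, Rab38 and Rab15 lie at 0.75 to 2.35 FPKM.

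Rab5c of the early endosome followed, with 81.6, 92.7 and 119 FPKM in the FSS libraries, against 98.2, 102 and 124 FPKM in the static ones. Rab1a, which carries cargo from the endoplasmic reticulum (ER) to the Golgi, had 91.6, 79.5 and 62.5 FPKM in the FSS libraries, against 82.2, 82.3 and 71.2 FPKM in the static ones. Both overlapped between the groups. Together with Rab14, Rab1b, Rab10 and Rab21 these were the 8 most abundant Rab genes, and they held 57.3% to 57.7% of the summed Rab FPKM in FSS libraries and 57.0% to 58.9% in static libraries. The sum over all Rab genes was 1538, 1537 and 1255 FPKM in FSS libraries, against 1624, 1633 and 1528 FPKM in static ones. FSS was lower in each pair, and in both groups number 3 was the lowest. As a share of all FPKM the Rab genes held 0.372%, 0.365% and 0.286% in FSS libraries and 0.376%, 0.378% and 0.325% in static libraries.

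The remaining 17 genes with values were too low to test, with means over the 6 libraries of at most 0.85 FPKM. They include Rab27b, a secretory Rab, Rab25 and Rab17, which are Rabs of epithelia, Rab3a, Rab3b and Rab3c of synaptic and endocrine secretion, and Rab4a. Rab3c was listed at 0 in all libraries. Rab39, which acts on endosomes and lysosomes, had 0.21, 0.28 and 0.19 FPKM in the FSS libraries, against 0.13, 0.21 and 0.11 FPKM in the static ones. Rab23, a Rab linked to cilia and Hedgehog signalling, stood just under the limit at 0.73, 0.71 and 0.62 FPKM in the FSS libraries, against 1.14, 1.00 and 0.9 FPKM in the static ones, and these groups did not overlap. Rab42 did not overlap either, at 0.05, 0.06 and 0.07 FPKM in the FSS libraries, against 0.24, 0.13 and 0.16 FPKM in the static ones. How many of all untested genes separate in this way was not counted. At such low levels a few fragments could set the values apart, and depth is unknown.

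Of the 41 tested Rab genes, 1 fell and none rose at an adjusted p under 0.05 (limma on log2(FPKM + 1), Benjamini-Hochberg over all genes). Of all genes tested, 0.862% fell and 0.853% rose by the same rule, and 1.72% changed in either direction. At an unadjusted limma p under 0.05, 8 Rab genes were lower and 1 higher, against 13.8% and 4.27% of all genes. Scaling by the median ratio without the block left 1 rise, Rab20, and no fall (1.45% and 0.651% of all genes, 2.10% in either direction). With the replicate number as a block, 17 fell and 2 rose, against 25.1% and 7.73% of all genes (32.9% in either direction). With the block and scaling of libraries by their median ratio, 8 fell and 7 rose, against 16.8% and 19.2% of all genes. All 8 of these falls and both earlier rises were among the calls of the block alone. The median Rab gene stood at -0.21 log2, the median of all genes at -0.12, and after scaling these were -0.08 and 0.02. In pairs 1 to 3 the Rab medians were -0.17, -0.13 and -0.33, beside -0.08, -0.07 and -0.22 over all genes. In all 3 pairs 24 of the 41 were lower and 5 higher, against 47.3% and 17.1% of all genes. The groups did not overlap for 13, with 12 lower and 1 higher (20.4% and 5.10% of all genes, 25.5% in either direction).

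**Figure D2:**
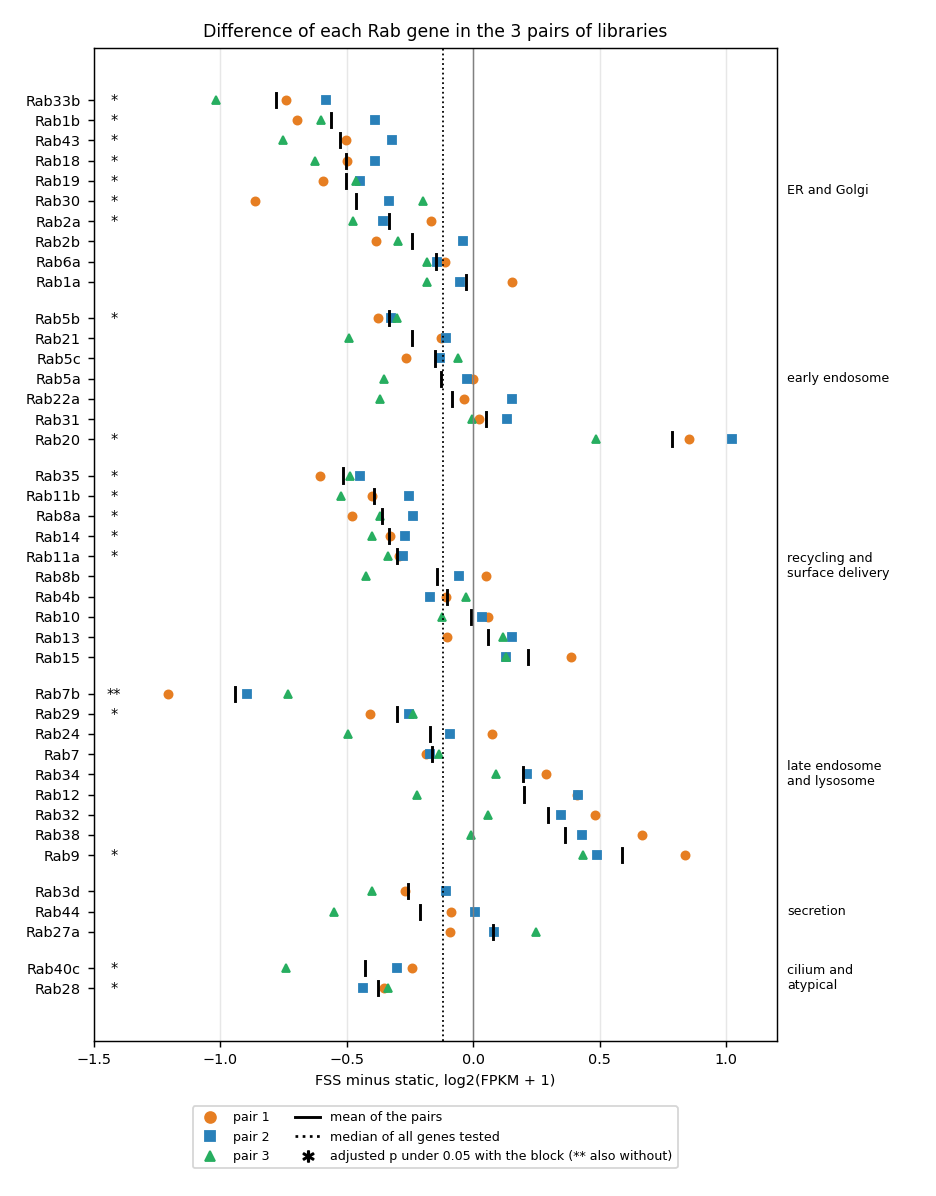
Difference FSS minus static in log2(FPKM + 1) for each of the 41 tested Rab genes in the 3 pairs of libraries (points), with the mean of the pairs (bar), the median of all genes tested (dotted, -0.12) and 0 (solid). An asterisk marks an adjusted p under 0.05 with the block, and a double one also without it. The 10 ER and Golgi genes have means below 0, and Rab20 and Rab9 stand above 0 in every pair.

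Rab7b was the gene that fell without the block. In mouse macrophages it is known to send Toll-like receptors to lysosomes for degradation. It had 3.19, 3.64 and 4.29 FPKM in the FSS libraries, against 8.66, 7.61 and 7.79 FPKM in the static ones. Every FSS library was below every static library. The ratio of means was 0.462, and the log2 difference -0.94 ± 0.16 (± SE; limma adjusted p = 0.0387, blocked 0.00191). With the block and scaling Rab7b passed as well (limma adjusted p = 0.00125). With median-ratio scaling and no block it did not pass (limma adjusted p = 0.0681). Unscaled and unblocked, it did not pass when FSS replicate 1 or 2 or any static library was dropped (limma adjusted p = 0.108 to 0.195). It passed without FSS replicate 3 (limma adjusted p = 0.0201).

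Of the ER and Golgi Rabs, 7 of 10 tested fell with the block, and 5 did once scaling was added, against 25.1% and 16.8% of all genes. All 10 had a negative log2 difference, as had 65.8% of all genes, and 9 were lower in all 3 pairs (47.3% of all genes). After scaling 8 were negative, against 47.2% of all genes, since Rab1a and Rab6a turned positive. None passed without the block, where 4 were lower and 0 higher at an unadjusted limma p under 0.05 (13.8% and 4.27% of all genes). Rab33b, a Golgi Rab that binds the autophagy factor Atg16l1, had 2.04, 1.97 and 1.36 FPKM in the FSS libraries, against 4.07, 3.45 and 3.78 FPKM in the static ones. The groups were far apart, differing on the log2 scale by -0.78 ± 0.16 (± SE; limma adjusted p = 0.063, blocked 0.0032, blocked and scaled 0.00116). Rab18, found on the ER and on lipid droplets, had 11.0, 12.0 and 8.90 FPKM in the FSS libraries, against 15.9, 16.1 and 14.3 FPKM in the static ones (log2 difference -0.50 ± 0.17; limma adjusted p = 0.169, blocked 0.00798, blocked and scaled 0.00972). Its groups did not overlap either.

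Rab1b, a close relative of Rab1a in ER to Golgi transport, had 34.1, 46.8 and 69.1 FPKM in the FSS libraries, against 55.9, 61.5 and 105 FPKM in the static ones. The number 3 library was the highest in both groups and the groups overlapped, though FSS was lower within each pair (log2 difference -0.56 ± 0.32; limma adjusted p = 0.418, blocked 0.005, blocked and scaled 0.0111). Rab43, which mouse dendritic cells of the CD8-positive type need for cross-presentation of antigen, had 30.1, 39.0 and 26.0 FPKM in the FSS libraries, against 43.0, 49.0 and 44.5 FPKM in the static ones. These groups did not overlap (log2 difference -0.53 ± 0.19; limma adjusted p = 0.199, blocked 0.00984, blocked and scaled 0.0113). The GENCODE M21 annotation places an exon of Rab43 over the predicted gene Gm45140. The annotation behind the deposited values is not stated, so how reads in that stretch were assigned is not known. Exons of 8 Rab genes overlap another protein coding gene in this way. Rab4b and Rab26 do so on the same strand, as Rab43 does. Rab2b, Rab3a, Rab5a, Rab6a and Rab24 do so on the opposite strand.

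Rab19, a Golgi Rab of low level, had 1.79, 3.31 and 2.82 FPKM in the FSS libraries, against 3.21, 4.88 and 4.26 FPKM in the static ones (log2 difference -0.50 ± 0.22; limma adjusted p = 0.276, blocked 0.00781, blocked and scaled 0.0147). The groups overlapped through static replicate 1 and FSS replicate 2. Rab2a, which acts on Golgi membranes, and Rab30, another Golgi Rab, fell with the block but not once libraries were scaled as well (limma adjusted p = 0.0349 and 0.145 for Rab2a, 0.039 and 0.0639 for Rab30). Rab30 spanned a wide range, at 3.03, 2.57 and 0.95 FPKM in the FSS libraries, against 6.33, 3.49 and 1.24 FPKM in the static ones. Rab6a, of retrograde Golgi traffic, and Rab2b did not pass in any of these 3 fits.

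**Figure D3:**
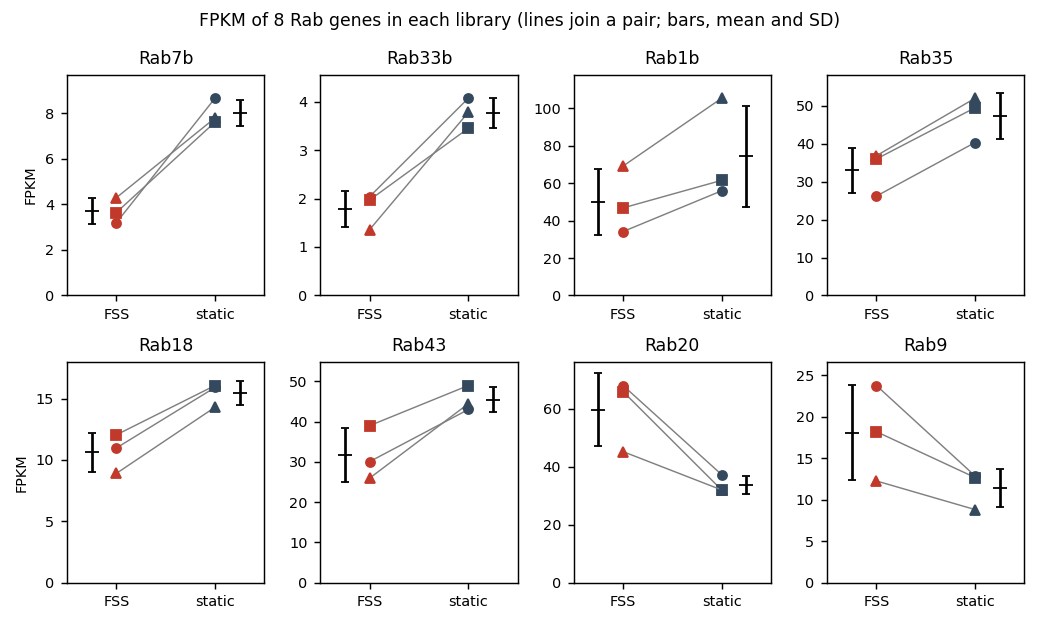
FPKM of 8 Rab genes in each library, FSS left (red) and static right (dark), with lines joining libraries of one replicate number and bars at the sides giving the mean and SD (n = 3). Each panel has its own axis from 0. Rab7b lies at 3.19 to 4.29 FPKM in FSS and 7.61 to 8.66 FPKM in static libraries, and Rab20 at 45.2 to 67.9 and 31.9 to 37.2 FPKM.

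Early endosome Rabs were mixed. Of 7 tested, 1 rose and 1 fell with the block (7.73% and 25.1% of all genes), and none passed without it, with 1 higher and 0 lower at an unadjusted limma p under 0.05 (4.27% and 13.8% of all genes). Rab20, a Rab of maturing phagosomes, had 67.9, 65.8 and 45.2 FPKM in the FSS libraries, against 37.2, 31.9 and 31.9 FPKM in the static ones. All FSS libraries were above all static ones, with a ratio of means of 1.77 and a difference on the log2 scale of 0.79 ± 0.20 (± SE; limma adjusted p = 0.101, blocked 0.00338, blocked and scaled 0.000144). With median-ratio scaling and no block Rab20 also passed (limma adjusted p = 0.0449). It did so without FSS replicate 3 as well, unscaled and unblocked (limma adjusted p = 0.0244), and in none of the other fits with a library dropped.

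Rab5b, one of the Rab5 proteins that drive fusion of early endosomes, had 26.1, 27.4 and 26.4 FPKM in the FSS libraries, against 34.2, 34.6 and 32.8 FPKM in the static ones. Its libraries were tight within groups and did not overlap between them (log2 difference -0.33 ± 0.14; limma adjusted p = 0.279, blocked 0.0247, blocked and scaled 0.159). Rab5a had 23.2, 22.4 and 13.4 FPKM in the FSS libraries, against 23.2, 22.8 and 17.4 FPKM in the static ones, and Rab5c the values above, and neither passed. Rab22a, which serves recycling of MHC class I in mouse dendritic cells, had 41.8, 49.6 and 34.1 FPKM in the FSS libraries, against 42.9, 44.6 and 44.3 FPKM in the static ones (limma adjusted p = 0.872, blocked 0.6). Rab21, which moves integrins through endosomes, had 57.2, 59.5 and 35.1 FPKM in the FSS libraries, against 62.6, 64.2 and 49.6 FPKM in the static ones (limma adjusted p = 0.677, blocked 0.113). Rab31, which links the Golgi and endosomes, differed by 0.05 ± 0.18 log2. GENCODE M21 places an exon of Pp2d1 over Rab5a on the other strand.

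Rabs of recycling and surface delivery gave falls that mostly did not pass after scaling. Of 10 tested, 5 fell and none rose with the block, against 25.1% and 7.73% of all genes. With the block and scaling 1 fell and 1 rose (16.8% and 19.2% of all genes). Without the block none passed, with 2 lower and 0 higher at an unadjusted limma p under 0.05, near the 13.8% and 4.27% of all genes. Rab35, which controls fast recycling from endosomes to the surface, had 26.2, 36.0 and 36.8 FPKM in the FSS libraries, against 40.3, 49.5 and 52.0 FPKM in the static ones. The groups did not overlap (log2 difference -0.51 ± 0.20; limma adjusted p = 0.223, blocked 0.00543, blocked and scaled 0.0168). It was the 1 recycling gene that fell with the block and the scaling, and Rab15, of endocytic recycling, was the 1 that rose.

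Rab11a and Rab11b both mark the recycling endosome. Rab11b had 32.4, 35.6 and 39.4 FPKM in the FSS libraries, against 43.1, 42.6 and 57.0 FPKM in the static ones. Rab11a had 29.9, 30.3 and 24.9 FPKM in the FSS libraries, against 36.9, 37.0 and 31.7 FPKM in the static ones. Neither gene's groups overlapped, and the log2 differences were -0.39 ± 0.18 for Rab11b (limma adjusted p = 0.31, blocked 0.0175, blocked and scaled 0.0576) and -0.30 ± 0.16 for Rab11a (limma adjusted p = 0.392, blocked 0.0341, blocked and scaled 0.211). Rab14, which joins endosomes and the Golgi, had 71.1, 71.6 and 55.5 FPKM in the FSS libraries, against 89.6, 86.6 and 73.6 FPKM in the static ones (limma adjusted p = 0.383, blocked 0.0201, blocked and scaled 0.149). Rab8a, which steers exocytic vesicles, had 32.6, 37.7 and 38.3 FPKM in the FSS libraries, against 45.9, 44.6 and 49.8 FPKM in the static ones (limma adjusted p = 0.277, blocked 0.022, blocked and scaled 0.12). Neither overlapped between groups, and neither passed after scaling.

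Rab8b, the relative of Rab8a, with the values above, differed by -0.14 ± 0.36 log2 (limma adjusted p = 0.897, blocked 0.31). Rab10, which brings Tlr4 to the surface of mouse macrophages, had 75, 64.2 and 46.1 FPKM in the FSS libraries, against 71.9, 62.7 and 50.2 FPKM in the static ones. The groups overlapped, and the log2 difference was -0.0095 ± 0.23 (limma adjusted p = 0.989, blocked 0.941). Rab13, known from cell junctions, and Rab4b, of rapid recycling, did not pass either; they differed by 0.057 ± 0.16 and -0.10 ± 0.25 log2.

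Late endosome and lysosome Rabs stood on both sides of 0. Of 9 tested, 5 had a positive log2 difference, with or without scaling, against 34.2% of all genes unscaled and 52.8% scaled. With the block 1 rose and 2 fell, against 7.73% and 25.1% of all genes. With the block and scaling 5 rose and 1 fell (19.2% and 16.8% of all genes). Rab9, which returns receptors from late endosomes to the Golgi, had 23.8, 18.2 and 12.3 FPKM in the FSS libraries, against 12.9, 12.7 and 8.81 FPKM in the static ones. It was higher under FSS in each pair, but FSS replicate 3 lay below static replicates 1 and 2 (log2 difference 0.59 ± 0.26; limma adjusted p = 0.293, blocked 0.00745, blocked and scaled 0.000536).

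Rab32, a Rab of lysosome-related organelles such as melanosomes, had 72.6, 51.1 and 29.2 FPKM in the FSS libraries, against 51.7, 40.0 and 27.9 FPKM in the static ones. Of these 3 fits it passed only the blocked and scaled one (limma adjusted p = 0.745, blocked 0.0679, blocked and scaled 0.00434). The same was true of its relative Rab38 at 2.35, 1.98 and 0.98 FPKM in the FSS libraries, against 1.11, 1.21 and 0.99 FPKM in the static ones (limma adjusted p = 0.435, blocked 0.081, blocked and scaled 0.0197). Rab12, of transport from recycling endosomes to lysosomes, was higher in pairs 1 and 2 and lower in pair 3, at 67.0, 54.0 and 28.2 FPKM in the FSS libraries, against 50.2, 40.3 and 33.0 FPKM in the static ones (limma adjusted p = 0.822, blocked 0.295, blocked and scaled 0.028). Rab34, which acts on lysosome position, was low at 1.98, 1.41 and 1.64 FPKM in the FSS libraries, against 1.44, 1.08 and 1.48 FPKM in the static ones (limma adjusted p = 0.59, blocked 0.164, blocked and scaled 0.0377). Rab29, a partner of the kinase Lrrk2, fell with the block alone (limma adjusted p = 0.406, blocked 0.0469, blocked and scaled 0.241). Rab24, linked to autophagy, did not pass, and its exons overlap those of Prelid1 on the other strand.

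The 3 secretory Rabs that could be tested did not pass in these fits; at an unadjusted limma p under 0.05 the count without the block was 0 in both directions. Rab27a, which docks secretory lysosomes and controls phagosome acidity in mouse dendritic cells, had 3.87, 3.89 and 3.20 FPKM in the FSS libraries, against 4.19, 3.62 and 2.54 FPKM in the static ones (limma adjusted p = 0.888, blocked 0.592). Rab3d, of secretory granules, had 7.81, 10.4 and 16.5 FPKM in the FSS libraries, against 9.62, 11.2 and 22.2 FPKM in the static ones, with number 3 highest in both groups. Rab44, a large Rab with calcium-binding motifs, had 3.15, 3.54 and 1.98 FPKM in the FSS libraries, against 3.41, 3.52 and 3.36 FPKM in the static ones. Of the remaining types, Rab40c, which carries a SOCS box and works with ubiquitin ligases, had 5.58, 6.08 and 4.48 FPKM in the FSS libraries, against 6.79, 7.72 and 8.14 FPKM in the static ones (limma adjusted p = 0.226, blocked 0.0323, blocked and scaled 0.04). Rab28, a Rab of cilia, had 6.34, 8.34 and 7.17 FPKM in the FSS libraries, against 8.37, 11.6 and 9.33 FPKM in the static ones (limma adjusted p = 0.327, blocked 0.0195, blocked and scaled 0.0758). Both fell with the block, as did 25.1% of all genes. Their groups did not overlap, with FSS lower, as in 20.4% of all genes.

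Sets of paralogs were compared as shares of their summed FPKM, a level per length. Rab7b made up 1.74%, 1.76% and 2.00% of the Rab7 and Rab7b sum in FSS libraries, against 4.05%, 3.22% and 3.26% in static ones. Rab33b held 88.3%, 81.7% and 80.0% of its sum with Rab33a in FSS libraries, against 92.3%, 93.2% and 94.5% in static libraries. In both sets the groups did not overlap. Rab33a itself was low, at means of 0.35 FPKM in FSS cells and 0.27 FPKM in static cells. The Rab3a share of the Rab3 set did not overlap either, at 6.66% to 10.3% in FSS and 1.77% to 5.94% in static libraries. Rab3a was too low to test.

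Rab1b held 27.1%, 37.0% and 52.5% of its sum with Rab1a in FSS libraries, against 40.5%, 42.8% and 59.7% in static libraries. The share was lower under FSS in each pair, while number 3 was the highest of each group. Rab8b held 76.3% to 90.1% of the Rab8 sum in FSS libraries and 76.9% to 86.2% in static libraries, and Rab11b 51.9% to 61.2% and 53.6% to 64.2% of the Rab11 sum. Rab5c held the largest share of the Rab5 sum in all 6 libraries, at 62.3% to 74.9% in FSS and 63.1% to 71.2% in static libraries. In these 3 sets the groups overlapped. Rab2a, Rab4b, Rab6a, Rab27a and Rab32 each held at least 92.7% of the sum with their paralog in every library.

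**Figure D4:**
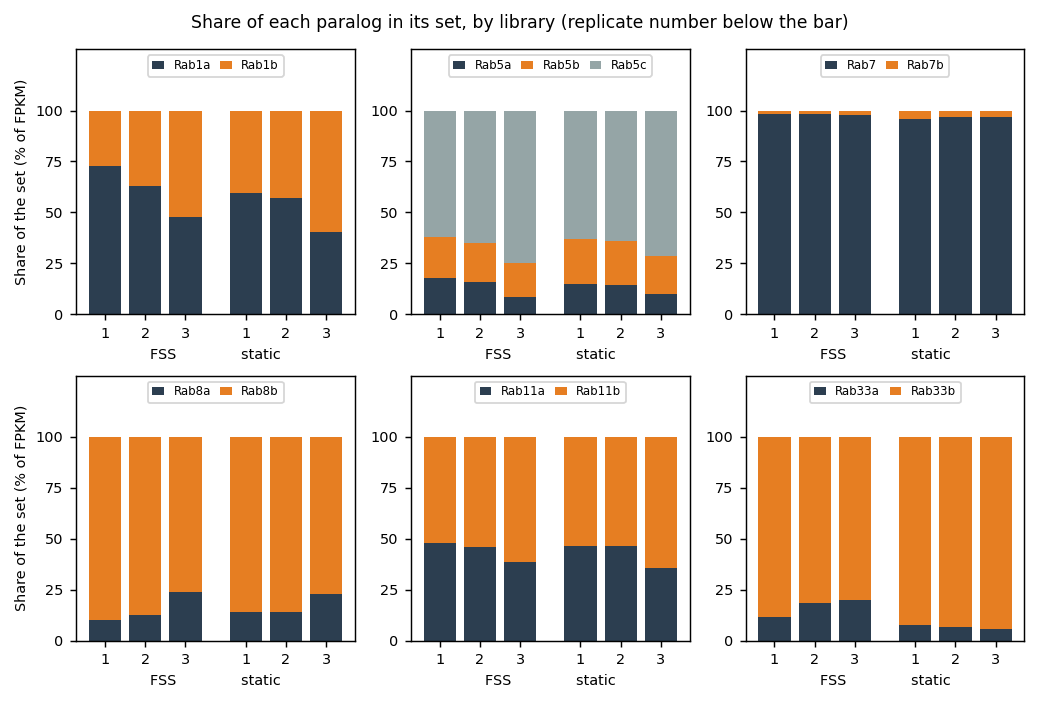
Share of each paralog in the summed FPKM of its set (bars to 100%), for FSS replicates 1 to 3 (left) and static replicates 1 to 3 (right). The Rab7b share is 1.74% to 2.00% in FSS and 3.22% to 4.05% in static libraries, and the Rab1a share is lowest in number 3 of both groups.

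Rab genes also differed between replicate numbers. Once group was accounted for, 15 of the 41 differed between numbers (limma F test, adjusted p under 0.05), against 49.7% of all genes. They included Rab8b (limma adjusted p = 0.00223), Rab1b (0.00266), Rab32 (0.00268), Rab3d (0.00231), Rab12 (0.0102) and Rab10 (0.00869). For Rab8b, Rab32, Rab12 and Rab10 number 3 was lowest in both groups, and for Rab1b and Rab3d it was highest. With pairs 1 and 2 alone and the block, 16 Rab genes fell and 5 rose, against 24.5% and 14.3% of all genes (38.8% in either direction). Of the 17 falls made with 3 pairs, 16 were among them, Rab40c being the exception. Pairs 1 and 2 are part of the same data, so this repeat is not independent. The blocked fit kept 8 of the 17 without pair 1 and 10 without pair 2. Falls over all genes dropped too, from 2739 of 10899 genes to 1626 of 10501 without pair 1 and 1936 of 10373 without pair 2. Rab2a, Rab5b, Rab11a, Rab14, Rab28 and Rab29 were lost in both of these fits. The rises of Rab20 and Rab9 were kept in each.

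The partners of the Rabs gave no call without the block. Of 122 tested members of 4 lists (prenylation and recycling of Rabs, GEFs, GAPs and effectors), none passed in limma, while 11 were lower and 7 higher at an unadjusted p under 0.05, against 13.8% and 4.27% of all genes. With the block 18 fell and 10 rose, and with the block and scaling 16 fell and 29 rose, against 25.1%, 7.73%, 16.8% and 19.2% of all genes.

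Of 8 genes that prenylate and recycle Rabs, 2 fell and none rose with the block (25.1% and 7.73% of all genes). Once libraries were scaled too, 2 fell and 1 rose (16.8% and 19.2% of all genes). Rabggta, a subunit of the transferase that attaches the lipid, had 2.15, 2.33 and 3.55 FPKM in the FSS libraries, against 3.32, 3.78 and 5.67 FPKM in the static ones (limma adjusted p = 0.289, blocked 0.00689, blocked and scaled 0.00996). Rabif, a chaperone of Rab proteins, had 6.35, 7.76 and 7.84 FPKM in the FSS libraries, against 10.2, 11.4 and 10.8 FPKM in the static ones (limma adjusted p = 0.137, blocked 0.00731, blocked and scaled 0.0185). The groups overlapped for Rabggta and did not for Rabif. Among 32 GEFs 4 fell and 3 rose with the block (25.1% and 7.73% of all genes). When scaling was added 3 fell and 8 rose (16.8% and 19.2% of all genes). Rin2, a GEF of Rab5, had 13.8, 13.4 and 8.93 FPKM in the FSS libraries, against 31.7, 22.2 and 23.6 FPKM in the static ones. Its ratio of means was 0.466 and its groups did not overlap (limma adjusted p = 0.0657, blocked 0.00201, blocked and scaled 0.000365).

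Ccz1, which with Mon1 activates Rab7, had 14.6, 16.2 and 13.1 FPKM in the FSS libraries, against 22.0, 23.4 and 23.2 FPKM in the static ones (limma adjusted p = 0.0939, blocked 0.00435, blocked and scaled 0.00285). Rgp1, which with Ric1 activates Rab6, had 3.59, 4.8 and 4.07 FPKM in the FSS libraries, against 6.94, 6.78 and 8.22 FPKM in the static ones (limma adjusted p = 0.0823, blocked 0.00477, blocked and scaled 0.00271). Rab3il1, a GEF of Rab8, had 65.5, 93.9 and 89.1 FPKM in the FSS libraries, against 93.8, 114 and 117 FPKM in the static ones and did not pass after scaling (limma adjusted p = 0.35, blocked 0.0124, blocked and scaled 0.0903). The first 2 of these had groups that did not overlap. Rab3gap2, part of a GEF of Rab18, was higher, at 18.5, 15.0 and 11.7 FPKM in the FSS libraries, against 9.75, 10.6 and 10.0 FPKM in the static ones (limma adjusted p = 0.213, blocked 0.0243, blocked and scaled 0.00174), and its groups did not overlap either.

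Among 31 GAPs 5 fell and 4 rose with the block (25.1% and 7.73% of all genes). When scaling was added 4 fell and 9 rose (16.8% and 19.2% of all genes). Tbc1d13, a GAP of Rab35, had 32.2, 36.5 and 37.0 FPKM in the FSS libraries, against 55.9, 51.5 and 65.6 FPKM in the static ones (limma adjusted p = 0.0876, blocked 0.00315, blocked and scaled 0.00252). Tbc1d16, a GAP of Rab4, had 3.97, 6.41 and 5.77 FPKM in the FSS libraries, against 8.22, 10.7 and 15.3 FPKM in the static ones (limma adjusted p = 0.112, blocked 0.00266, blocked and scaled 0.000494). Tbc1d22b had 3.97, 5.77 and 4.40 FPKM in the FSS libraries, against 8.46, 8.23 and 9.31 FPKM in the static ones (limma adjusted p = 0.0716, blocked 0.00423, blocked and scaled 0.00216). These 3 had groups that did not overlap. Tbc1d4, a GAP of Rab10 in insulin-treated fat cells, had 10.4, 7.40 and 4.17 FPKM in the FSS libraries, against 19.1, 9.43 and 7.65 FPKM in the static ones (limma adjusted p = 0.454, blocked 0.00835, blocked and scaled 0.00742), and its groups overlapped. Tbc1d2b rose with the block, at 44.4, 34.9 and 29.4 FPKM in the FSS libraries, against 19.2, 24.0 and 22.3 FPKM in the static ones (limma adjusted p = 0.123, blocked 0.0129, blocked and scaled 0.0012), with every FSS library above every static one.

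Among 51 effectors 7 fell and 3 rose with the block (25.1% and 7.73% of all genes). When scaling was added 7 fell and 11 rose (16.8% and 19.2% of all genes). Rilpl2, which binds phosphorylated Rab8 and Rab10, rose with the block, at 82.3, 78.3 and 74.5 FPKM in the FSS libraries, against 40.4, 42.1 and 52.1 FPKM in the static ones (limma adjusted p = 0.0629, blocked 0.00286, blocked and scaled 0.000131). Every FSS library was above every static one. Ehbp1l1, an effector of Rab8, had 23.6, 31.1 and 27.8 FPKM in the FSS libraries, against 42.2, 47.7 and 51.2 FPKM in the static ones (limma adjusted p = 0.0795, blocked 0.00205, blocked and scaled 0.0011). Uso1, the tether p115 that Rab1 recruits to vesicles bound for the Golgi, had 23.3, 24.1 and 21.6 FPKM in the FSS libraries, against 34.7, 33.8 and 33.3 FPKM in the static ones (limma adjusted p = 0.113, blocked 0.00471, blocked and scaled 0.00757). Both had groups that did not overlap. Rab11fip5, an effector of Rab11, had 6.87, 8.43 and 12.5 FPKM in the FSS libraries, against 10.8, 12.7 and 18.7 FPKM in the static ones (limma adjusted p = 0.327, blocked 0.0046, blocked and scaled 0.00742), with overlap between the groups.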

How the data were processed

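RNA of 6 libraries (3 FSS, 3 static) was analysed, grouped by the submitters' titles. The authors deposited a table for the series and one per sample, with identical values. No header names a unit. The deposited values were read as FPKM because value times transcript length (GENCODE M21), summed over genes, came to 0.552 to 0.609 (median transcript) and 1.14 to 1.28 (longest) of the sum exact FPKM would give. HISAT and Bowtie2 appear in the submitters' processing notes without a role. Quantifier, build, annotation and use of strand were not stated in the labels or headers. Low values showed no steps of whole reads, so the depth of a library is not known, and intervals for counting error could not be made. Totals per library ran from 413898 to 470596 FPKM.

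Genes reaching 1 FPKM in 3 libraries or more were fitted with limma 3.58.1 (R 4.3.3, variance trend) on log2(FPKM + 1), FSS minus static, two-sided, with Benjamini-Hochberg adjustment over 10899 genes and a threshold of 0.05. This scale understates changes of low genes. The fit was tested on simulated data, with noise drawn independently for each gene and no shift of all genes between groups. That simulation therefore does not bear on the choice of scaling. Deviations from the group means correlated within each replicate number (Pearson 0.79, 0.66 and 0.87 across genes, which are not independent). The numbers were therefore treated as pairs on the evidence of the data, since the labels do not say what a number shares. Unlike numbers correlated too, at 0.28 for FSS 1 with static 2 and 0.22 for FSS 2 with static 1. Where number 3 met another number the values were -0.78 to -0.54. Deviations from a mean of 3 libraries sum to 0, so these values depend on each other. The block leaves few libraries from which to estimate spread, so blocked p-values lean on the variance that limma shares across genes. Scaling divided each library by its median ratio to the geometric mean.

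The members, role groups and lists were chosen with earlier results of these data known. Given with all 6 values were Rab genes called without the block, the 14 with the smallest blocked p, the 8 most abundant and 10 set by name, and up to 4 partners per list by smallest blocked p. Other genes were added after their values were seen. RefSeq promoters matched 47 of the 58 Rab genes. Other settings tried are given at the end. Single pairs left out with the block, and pairs 1 and 2 alone with it, were chosen after seeing the data.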

Additional observations from a re-analysis of the deposited data

How the results depend on the processing

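Rab counts depend on the model. The number of Rab genes higher and lower was 0 and 1 as reported, 2 and 17 under the replicate block, 7 and 8 under that block plus median-ratio scaling, 1 and 0 with the scaling alone, and 0 and 0 with no filter, with a threshold of 0.01 and with library totals made equal. With pairs 1 and 2 alone it was 1 and 1 unblocked and 5 and 16 blocked, and the blocked fit gave 2 and 8 without pair 1 and 2 and 10 without pair 2. Leaving out 1 library gave 0 to 1 higher and 0 to 1 lower. For partner genes, 0 and 0 as reported, the counts were 10 and 18 blocked, 1 and 0 scaled, 29 and 16 under both, 6 and 2 with pairs 1 and 2 alone, 30 and 18 with these and the block, 2 and 16 without pair 1 and 4 and 18 without pair 2; leaving out 1 library gave 0 to 4 higher and 0 lower. Over all genes, 93 and 94 as reported, they were 842 and 2739 blocked, 158 and 71 scaled, 2092 and 1829 under both, 14 and 7 with no filter, 4 and 1 at 0.01, 68 and 45 with equal totals, 371 and 356 with pairs 1 and 2 alone, 1526 and 2608 with these and the block, 445 and 1626 without pair 1, 519 and 1936 without pair 2, and 3 to 254 higher and 0 to 161 lower without 1 library. Without FSS replicate 3 they were 254 and 161; the fits without any 1 of the other libraries gave fewer calls, from 3 and 0 without static replicate 1 to 27 and 7 without static replicate 3. The cause was not tested. The Rab median of -0.21 stood at -0.084 after scaling, with or without the block, and at -0.26 to -0.15 without 1 library.

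Of the 25 tested Rab genes that the naming rule chose, 8 turned sign under some alternative. Unscaled and with all 6 libraries, none of these 8 passed with or without the block. Rab32, one of the 8, passed with the block and scaling (limma adjusted p = 0.00434). It also passed with pairs 1 and 2 alone and the block (limma adjusted p = 0.00692). Scaling also turned Rab6a to 0.0092 and Rab4b to 0.052, which were not followed under the other alternatives. The log2 differences of the 8 were 0.018 for Rab8b, 0.0095 for Rab5c, 0.13 for Rab1a, 0.15 for Rab10, 0.027 for Rab5a and 0.073 for Rab22a after scaling, with or without the block, 0.039 for Rab1a and 0.056 for Rab10 with equal totals, and 0.052 for Rab1a, 0.047 for Rab10, 0.057 for Rab22a and -0.0049 for Rab27a with pairs 1 and 2 alone, with or without the block. With 1 library left out they ran from -0.39 to 0.25 for Rab8b, from -0.15 to 0.12 for Rab1a, from -0.16 to 0.18 for Rab10, from -0.26 to 0.12 for Rab5a, from -0.21 to 0.051 for Rab22a, from -0.077 to 0.20 for Rab27a and from -0.0012 to 0.64 for Rab32, the positive end coming without FSS replicate 3 for Rab8b, Rab1a, Rab10, Rab5a and Rab22a, while Rab27a turned without static replicate 3 and Rab32 without FSS replicate 1. Rab1a and Rab10 also turned without static replicate 1 (0.007 and 0.11) and 2 (0.0084 and 0.01). Of the values of these 25 genes under the alternatives, 324 kept direction and side of the threshold, 59 passed newly, 9 no longer passed and 33 turned. Depth is unknown, so no limit from counting can be set.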
